A study of Mus musculus with 16 samples.

Results

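The genes described here carry cholesterol out of cells or make and sense the oxysterols that control this traffic. They were chosen by name from a list of 10: Abca1, Abcg1, Scarb1, Apoe, Pltp, Npc1, Ch25h, Nr1h3, Nr1h2 and Mylip. A gene was taken from a probeset, a set of array probes for 1 transcript cluster, that is annotated to exactly 1 symbol. Of the 10, 9 had such a probeset, 1 each, among the 30142 genes measured. No probeset with 1 symbol or with several carried the symbol Nr1h2, so that gene is not analysed here. RNA came from glomerular extracts of the kidney cortex of 16 female mice, 1 array per mouse, and the series asks how oestrogen receptor alpha bears on lipid metabolism and glomerulonephritis. Wild type mice were C57Bl/6, and knockout mice were B6.ERαKO, which lack oestrogen receptor alpha on the same background. Each genotype had 2 untreated mice and 2 mice at each of 3 times, namely 18 hours, 6 days and 2 weeks after an intraperitoneal injection of sheep nephrotoxic serum at 8 ul per g, which binds the glomerular basement membrane and starts nephritis. The labels do not say how old the mice were, whether the 2 mice of a group shared a litter, or how the knockout allele was made.

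Cells cannot break the sterol ring down, so surplus cholesterol is exported to lipoproteins or stored as ester. The liver X receptors, encoded by Nr1h3 and Nr1h2, are nuclear receptors that bind oxysterols and switch on genes of export, among them Abca1, Abcg1, Apoe and Mylip. Podocytes, the cells that wrap the glomerular capillaries, are known to be injured by cholesterol that they fail to export through ABCA1, while macrophages and tubule cells use the same genes.

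Values are deposited log2 levels per probeset, with array medians of 5.57 to 5.9, and differences are in the same units. They are not called folds of RNA because the means of 152 genes exceeded 16, beyond what a 16-bit scanner records on a plain log2 scale. An unstated transformation may be present, which was not tested. Levels of different genes are not compared. Esr1, which encodes the receptor, was between 6.35 and 7.53 in wild type and between 7.11 and 7.64 in knockout. Apart from the 18-hour replicates 2 (7.53 in wild type and 7.11 in knockout), every knockout array lay at or above 7.29 and every wild type array at or below 7.04, so that Esr1 was not lower in mice labelled knockout. Neither the stretch of Esr1 that this probeset reads nor the deleted stretch is stated in the labels. Both arrays labelled 18 hours replicate 2 stood with the other genotype in genes whose kidney level differs between the sexes: Abcc3, an organic anion exporter, was 6.25 in wild type replicate 2 and 12.93 in knockout replicate 2, against 13.09 and 6.50 in the replicates 1. Knockout 2 weeks replicate 1 also stood apart, with the tubule injury gene Havcr1 at 7.17 against 12.77 in its replicate. It also had the lowest podocyte and endothelial marker means of all 16 arrays, 8.76 and 9.02, against 10.50 and 10.91 in its replicate. Labels were kept, and results are also given over 14 arrays (without both 18-hour replicates 2) and over 13 arrays (also without knockout 2 weeks replicate 1), sets that were chosen by their values. The extracts were not glomeruli alone: the mean of 11 proximal tubule markers was 13.05 to 16.34 and that of 9 podocyte markers 8.76 to 10.96 in the 16 arrays. In such bulk samples fewer cells of a type and less RNA per cell cannot be told apart.

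**Figure D1:**
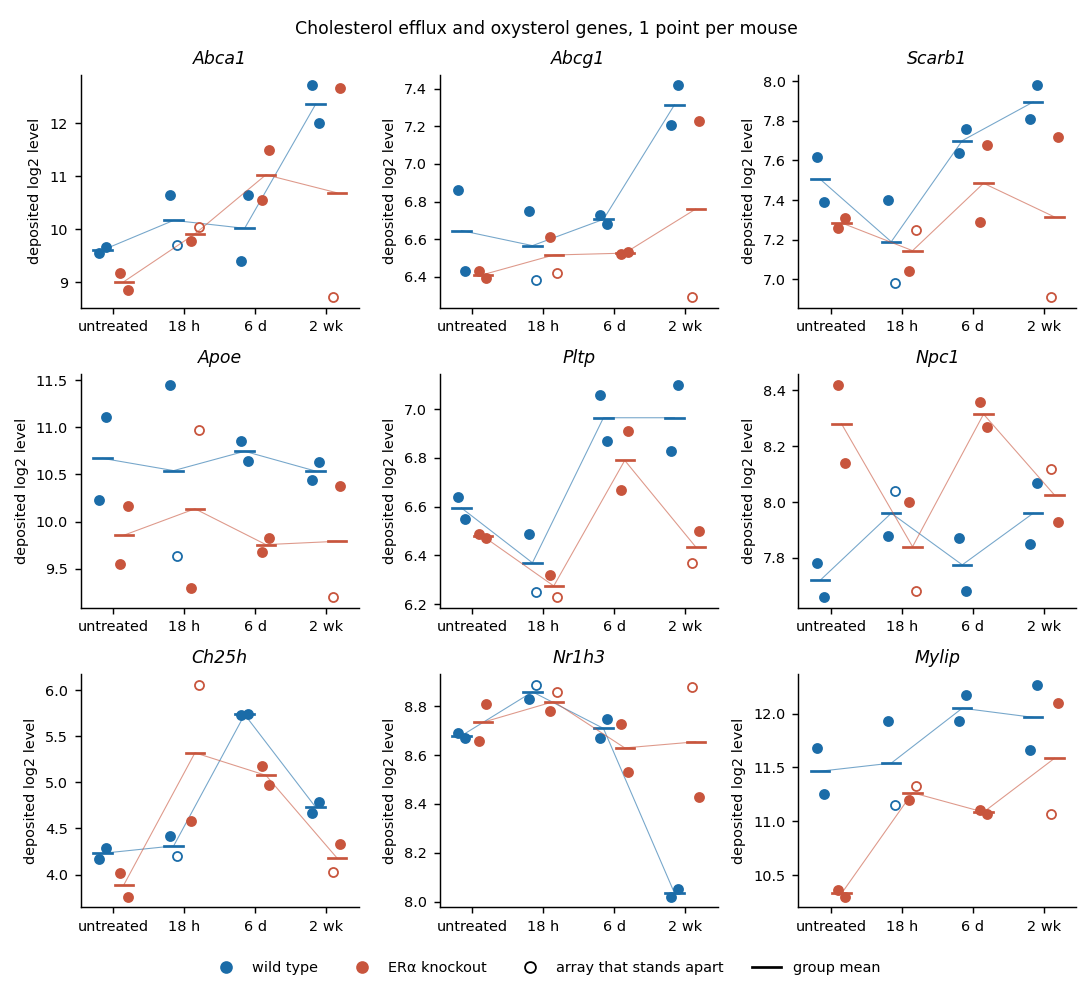
Deposited log2 level (y axis) of the 9 measured genes in untreated mice and 18 hours, 6 days and 2 weeks after serum (x axis), with 1 point per mouse and a bar at each group mean. Wild type is blue and knockout red, and open points are the 3 arrays that stand apart. Abca1 is near 12 to 13 in 3 of the 4 arrays at 2 weeks, Ch25h peaks at 6 days in wild type, and Nr1h3 is lowest in the 2 wild type arrays at 2 weeks.

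The first question was how the genes moved after serum, taken over both genotypes, which gives 4 arrays at each time. The averaged differences do not depend on the genotype label of an 18-hour array, but their standard errors and calls do, since the spread is taken within the 8 groups. Ch25h rose at 6 days and Mylip rose at 2 weeks. No member was called lower in these averaged comparisons, where Nr1h3 at 2 weeks was -0.37 ± 0.11 (SE; limma adjusted p = 0.0547). In wild type taken by itself Nr1h3 was called lower at 2 weeks. At 18 hours limma called 0 of the 9 members at an adjusted p under 0.05 (Benjamini-Hochberg over all 30142 genes), as it called 0% of all genes. At an unadjusted p under 0.05 there were 2 members then, and 1266 of all 30142 genes. At 6 days it called 1 of 9 higher, where 0.889% of all genes were called and 0.687% were called higher. At 2 weeks it again called 1 of 9 higher, where 9.34% of all genes were called and 5.1% were called higher, so that the share of members is near the background. The median difference of the 9 members was 0.07, 0.20 and 0.21 at the 3 times, against 0.02, 0.01 and 0.09 over all genes. Array medians were higher at 2 weeks by 0.17, and after centring on them the 2-week median of the members was 0.04, against -0.07 over all genes. The 3 comparisons share the untreated arrays.

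**Figure D2:**
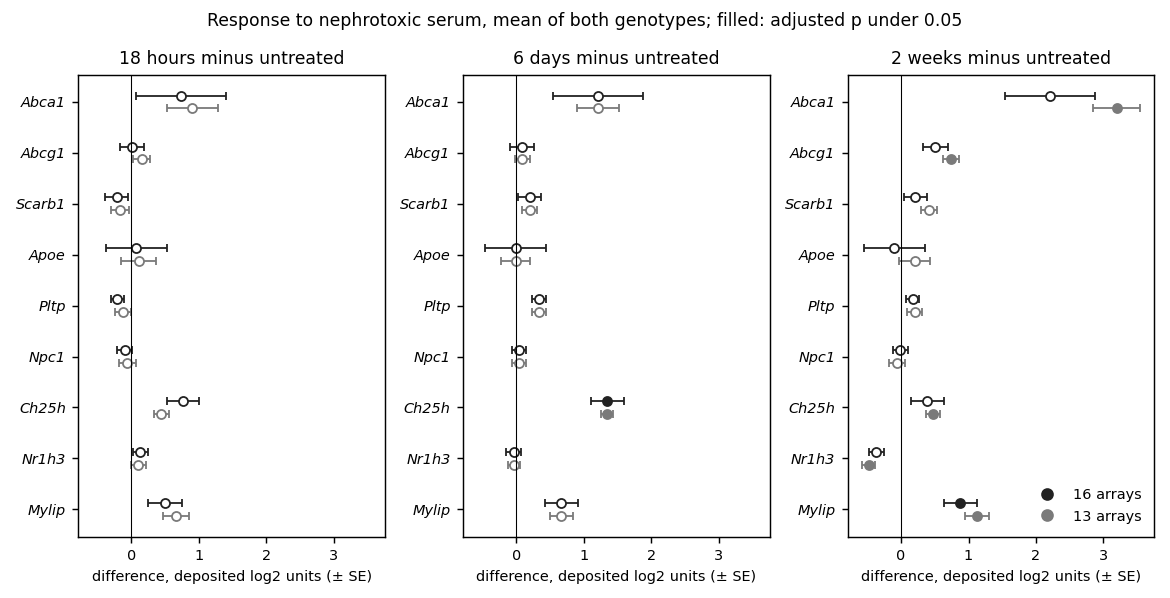
Difference from untreated (x axis, deposited log2 units) for the 9 genes (y axis) at 18 hours, 6 days and 2 weeks, averaged over both genotypes. Points are limma estimates over 16 arrays (black) and 13 arrays (grey), bars are standard errors, and filled points have an adjusted p under 0.05. Over 16 arrays Ch25h at 6 days (1.35) and Mylip at 2 weeks (0.88) are filled, and over 13 arrays Abca1 at 2 weeks moves to 3.20.

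Abca1 encodes the transporter that loads cholesterol onto lipid-poor apolipoproteins, the first step of export. Its level was 9.55 and 9.67 in untreated wild type, 10.64 and 9.70 at 18 hours, 9.40 and 10.64 at 6 days, and 12.72 and 12 at 2 weeks. In knockout it was 9.18 and 8.85 untreated, 9.79 and 10.04 at 18 hours, 10.56 and 11.50 at 6 days, and 8.72 and 12.66 at 2 weeks. Both wild type arrays at 2 weeks thus lay above every wild type array of another time, and the knockout pair at 2 weeks held both the lowest value of all 16 arrays and 1 of the 3 highest. Ordered by mean, wild type at 2 weeks came first (12.36 ± 0.51; SD, n = 2), followed by knockout at 6 days (11.03 ± 0.67) without overlap, and untreated knockout came last (9.02 ± 0.24). Of the 7 pairs of neighbours in this order 4 overlapped. The difference between 2 weeks and untreated was 2.21 ± 0.67 over both genotypes (SE; limma adjusted p = 0.0609), 2.75 ± 0.95 in wild type (limma adjusted p = 0.0889) and 1.68 ± 0.95 in knockout (limma adjusted p = 0.667), none of which passed. Leaving out either knockout 2-week array does not touch the wild type difference, but it takes that pair (8.72 and 12.66) out of the shared spread. Both fits therefore give the same wild type test, in which 2.75 passed. The averaged value rests on 1 array: without knockout 2 weeks replicate 1 it was 3.20 over both genotypes (limma adjusted p = 0.000424), and without replicate 2 it was 1.23. Over the 13 arrays Abca1 rose by 3.20 ± 0.35 over both genotypes and by 2.75 ± 0.44 in wild type. The wild type size was again fixed, and only its error could change. The knockout difference in that set, 3.65 ± 0.54 (adjusted p = 0.0194), rests on 1 array at 2 weeks, assumed to vary like the other groups. With the other knockout array kept in its place, over 15 arrays, it was -0.29.

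Havcr1, a marker of injured proximal tubule, was high in the same arrays as Abca1. It stood at 13.23 and 12.56 in wild type at 2 weeks, where Abca1 was 12.72 and 12, and at 7.17 and 12.77 in knockout at 2 weeks, where Abca1 was 8.72 and 12.66. At 6 days it was 10.31 and 12.39 in knockout, beside Abca1 at 10.56 and 11.50, and 6.83 and 9.19 in wild type, beside 9.40 and 10.64. Wild type 18 hours replicate 1 was an exception, with Havcr1 at 5.68, the lowest of all arrays, and Abca1 at 10.64. Over both genotypes 7 of 15 macrophage markers were called higher at 2 weeks and 8 of 11 proximal tubule markers lower, where 5.1% of all genes were called higher and 4.24% lower. The macrophage mean was 6.95 and 6.93 in wild type at 2 weeks and 6.05 and 6.46 in knockout, against 6.10 to 6.20 in the untreated arrays. The proximal tubule mean was 13.05 and 14.47 in wild type and 15.58 and 13.91 in knockout at 2 weeks, against 15.66 to 16.34 untreated. Knockout 2 weeks replicate 1, low in Abca1, Abcg1 and Scarb1, was also the array lowest in podocyte and endothelial markers. The part of these cell types in the levels of these genes was not tested.

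The promoter of Abca1 is shown because the liver X receptors bind a direct repeat of AGGTCA spaced by 4 bases. The fewest mismatches to this repeat were searched on both strands in 32851 RefSeq promoter windows (GRCm38.p6), each of 250 bases before and 50 after a start site. This measure was taken after a search that allowed at most 1 mismatch in each copy found no site in the members. Of the 9 measured members, 6 had windows, Abca1, Apoe, Ch25h, Mylip, Nr1h3 and Pltp. The best match of Abca1 had 3 mismatches in the 12 half-site bases and ended 51 bases before the start, and 21.9% of all windows had as few. Ch25h is printed beside it as the gene called at 6 days, and its best match had 4 mismatches, as few as 76.9% of windows. In the other members the best match had 4 or 5 mismatches. Capitals mark the best match, and the Abca1 match lies on the opposite strand:
Abca1, chr4:53159896-53160022, minus strand: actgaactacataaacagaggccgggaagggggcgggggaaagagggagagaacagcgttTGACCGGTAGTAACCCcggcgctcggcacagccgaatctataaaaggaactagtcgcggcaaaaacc
Ch25h, chr19:34475166-34475301, minus strand: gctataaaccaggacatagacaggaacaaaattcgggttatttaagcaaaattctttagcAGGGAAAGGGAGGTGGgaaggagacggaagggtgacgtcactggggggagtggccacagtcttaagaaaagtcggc
A match with this many mismatches is a description of the letters, not of binding, and the arrays did not measure binding.

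Abcg1, which passes cholesterol on to mature high-density lipoprotein, was highest in the arrays that were highest in Abca1. In untreated mice it was 6.86 and 6.43 in wild type and 6.43 and 6.39 in knockout, and at 2 weeks it was 7.21 and 7.42 in wild type and 6.29 and 7.23 in knockout. The 3 highest arrays were the same for both genes, but at 6 days knockout Abcg1 was 6.52 and 6.53, near untreated, where Abca1 was 10.56 and 11.50. The difference between 2 weeks and untreated was 0.51 ± 0.18 (SE; limma adjusted p = 0.0931). Without knockout 2 weeks replicate 1 it rose by 0.74 (limma adjusted p = 0.00301), and over the 13 arrays by 0.74 ± 0.12 (adjusted p = 0.00421). Without replicate 2 instead it was 0.28 (adjusted p = 0.195), and after centring on the array medians 0.34 (adjusted p = 0.244). Scarb1, the scavenger receptor that exchanges cholesterol with high-density lipoprotein in both directions, ranged only from 6.91 to 7.98, with the lowest value in knockout 2 weeks replicate 1 and the highest in wild type 2 weeks replicate 2. At 2 weeks it differed from untreated by 0.21 ± 0.17 (limma adjusted p = 0.414). It passed at no time over the 16 or the 13 arrays.

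Ch25h encodes cholesterol 25-hydroxylase, which makes 25-hydroxycholesterol, an oxysterol with roles in innate immunity. It was 4.17 and 4.29 in untreated wild type, 4.42 and 4.20 at 18 hours, 5.73 and 5.74 at 6 days, and 4.67 and 4.79 at 2 weeks. In knockout it was 4.02 and 3.76 untreated, 4.58 and 6.06 at 18 hours, 5.18 and 4.97 at 6 days, and 4.03 and 4.33 at 2 weeks. All 4 arrays at 6 days lay above all 4 untreated arrays and above all 4 at 2 weeks. The 1 higher value, 6.06, belonged to knockout 18 hours replicate 2, an array that stands apart. Levels were low on the scale of these arrays, where the median of 23 background probesets was 3.47 to 3.7. Ch25h rose at 6 days by 1.35 ± 0.24 over both genotypes (SE; limma adjusted p = 0.0369), with 1.51 ± 0.34 in wild type and 1.19 ± 0.34 in knockout (limma adjusted p = 0.322 and 0.343). In wild type and knockout taken alone, 0 of 9 members passed at 6 days, where 0% and 0.0133% of all genes were called. The difference of these responses was -0.32 ± 0.48 (limma adjusted p = 1). The sets of 14 and 13 arrays keep every untreated and 6-day array, so the sizes of these rises were fixed and only their errors could change. Both sets take the 18-hour pairs, with knockout at 4.58 and 6.06, out of the shared spread. Over the 14 arrays the averaged rise was 1.35 ± 0.10 (adjusted p = 0.00749), where 0.106% of all genes were called. Over the 13 arrays it passed over both genotypes and in each, wild type and knockout (adjusted p = 0.00291, 0.0203 and 0.0294), where 2.67%, 0.00664% and 0.153% of all genes were called.

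The Ch25h call was close to the threshold. Leaving out 1 array kept the difference between 1.28 and 1.41 and the call in 6 of the 16 cases. It was lost (limma adjusted p of 0.0555 to 0.171) without either untreated or either 6-day array of each genotype, or without either wild type 18-hour array. At 2 weeks Ch25h differed from untreated by 0.39 ± 0.24 (adjusted p = 0.281), and it passed without knockout 18 hours replicate 1 or replicate 2 (adjusted p = 0.0462 and 0.046). At 18 hours it differed by 0.76 ± 0.24 (adjusted p = 0.988), with 1.12 without knockout 18 hours replicate 1 (adjusted p = 0.0412) and 0.39 without replicate 2, the array that stands apart (adjusted p = 1). Beside the 6-day values, 1 of 15 macrophage markers was called higher, and the macrophage mean was 6.55 and 6.57 in wild type and 6.31 and 6.38 in knockout at 6 days. The part of macrophages in the Ch25h level was not tested.

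Among the receptors and their targets, Nr1h3, which encodes liver X receptor alpha, was lower at 2 weeks in wild type. It was 8.69 and 8.67 in untreated wild type, 8.83 and 8.89 at 18 hours, 8.67 and 8.75 at 6 days, and 8.02 and 8.05 at 2 weeks. In knockout it was 8.66 and 8.81 untreated, 8.78 and 8.86 at 18 hours, 8.73 and 8.53 at 6 days, and 8.88 and 8.43 at 2 weeks. The 2 wild type arrays at 2 weeks were the lowest of all 16, and knockout 2 weeks replicate 2 was next. In wild type Nr1h3 fell by 0.65 on the log2 scale at 2 weeks (SE 0.15; limma adjusted p = 0.0315), as the 1 member called of 9, where 8.04% of all genes were called and 3.23% were called lower. The call was lost with the groups compared only (adjusted p = 0.0941), a fit in which Abca1 passed instead (2.75, adjusted p = 0.0342). It was also lost without either untreated array of a genotype or without wild type 2 weeks replicate 2 (adjusted p = 0.0516 to 0.148, differences of -0.66 to -0.63), and it held in the other 11 cases of leaving out 1 array. Over the 14 arrays it was lost too (-0.65, adjusted p = 0.0655), where 2.85% of all genes were called, and it passed over the 13 (adjusted p = 0.0141), where 12.9% were. In knockout the difference was -0.08 ± 0.15 (adjusted p = 0.932), where 0 of the 9 members and 0.109% of all genes were called. The responses differed by 0.56 ± 0.21 (limma adjusted p = 0.639), so a difference between genotypes is not shown. Averaged over both genotypes the difference was -0.37 ± 0.11 (adjusted p = 0.0547), and without knockout 2 weeks replicate 1 it was -0.48 (adjusted p = 0.00457). Array medians were higher by 0.21 at 2 weeks in wild type, and after centring on array medians the averaged Nr1h3 difference passed (-0.53, adjusted p = 0.0122) and the wild type one was -0.86 (adjusted p = 0.0134). The fall ran beside a low proximal tubule mean in the same arrays (13.05 and 14.47), and the part of tubule RNA in it was not tested.

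Mylip encodes the ubiquitin ligase also called IDOL, a liver X receptor target that sends certain lipoprotein receptors to degradation. It was 11.68 and 11.25 in untreated wild type, 11.93 and 11.15 at 18 hours, 11.93 and 12.17 at 6 days, and 11.66 and 12.27 at 2 weeks. In knockout it was 10.36 and 10.30 untreated, 11.20 and 11.33 at 18 hours, 11.10 and 11.07 at 6 days, and 11.07 and 12.10 at 2 weeks. The 2 untreated knockout arrays were the lowest of all 16, apart from every other group. Mylip rose at 2 weeks by 0.88 ± 0.25 over both genotypes (SE; limma adjusted p = 0.0486), with 0.50 ± 0.35 in wild type (adjusted p = 0.336) and 1.25 ± 0.35 in knockout (adjusted p = 0.281), and the responses differed by 0.75 ± 0.49 (adjusted p = 0.696). At 6 days the averaged difference was 0.67 ± 0.25 (limma adjusted p = 0.261). After centring on the array medians the 2-week difference was 0.71 and no longer passed (adjusted p = 0.0797).

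The Mylip call too was near the threshold and held in 4 of the 16 cases of leaving out 1 array. These were the cases without either wild type 18-hour array, without replicate 1 of wild type at 2 weeks, or without that of knockout (difference 1.13, adjusted p = 0.00475). Leaving out any other array gave differences of 0.62 to 0.98 and an adjusted p of 0.0671 to 0.157. It was lost over the 14 arrays as well (0.88, adjusted p = 0.0693), where 4.09% of all genes were called, and it passed over the 13 arrays (1.13 ± 0.18, adjusted p = 0.00447). In that smaller set 5 of the 9 members were called at 2 weeks over both genotypes, 4 higher (Abca1, Abcg1, Ch25h and Mylip) and 1 lower (Nr1h3), where 19.3% of all genes were called, with 9.27% higher and 10.1% lower. For knockout alone that set gave 3 of 9 members, Abca1, Abcg1 and Mylip, where 4.35% of all genes were called, with 1 array at 2 weeks whose spread is borrowed from the other groups. The set keeps only the knockout array that resembles the wild type ones at that time, so these calls depend on a choice made by value.

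The second question was how the genotypes differed. Over all 16 arrays limma called 0 of the 9 members in the average over the 4 times, as it called 0% of all genes. At an unadjusted p under 0.05 there were 4 members, Apoe, Pltp, Npc1 and Mylip, and 3514 of all 30142 genes. The median of the 9 differences was -0.25, against -0.01 over all genes. At the single times 0 of 9 were called as well, where 0% of all genes were called in untreated mice, 0% at 18 hours, 0.00664% at 6 days and 0.182% at 2 weeks. The numbers of members at an unadjusted p under 0.05 were 2, 1, 2 and 3 at these times. Of all 30142 genes 1564, 707, 1457 and 5841 had such a p. At 2 weeks the count was 5 of 9 without knockout 2 weeks replicate 2, where 17.7% of all genes were called, and 0 without replicate 1, where 0% were. No difference of responses between the genotypes passed either, with 0 of 9 members at each time.

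Apoe encodes apolipoprotein E, a carrier of cholesterol that macrophages, mesangial cells and the liver secrete. It was 10.23 and 11.11 in untreated wild type, 11.45 and 9.63 at 18 hours, 10.85 and 10.64 at 6 days, and 10.44 and 10.63 at 2 weeks. In knockout it was 9.55 and 10.16 untreated, 9.30 and 10.97 at 18 hours, 9.68 and 9.83 at 6 days, and 9.20 and 10.38 at 2 weeks. Apart from the 18-hour replicates 2, the wild type arrays ran from 10.23 to 11.45 and the knockout arrays from 9.20 to 10.38, so that 1 knockout array, 2 weeks replicate 2, reached into the wild type range. No serum time passed for Apoe, with differences from untreated of 0.07, -0.01 and -0.10 over both genotypes (SE 0.45 at each time). The genotype difference was -0.74 ± 0.32 over all 16 arrays (SE; limma adjusted p = 0.406). It was -1.17 ± 0.23 over the 14 arrays (limma adjusted p = 0.0399), where 1.72% of all genes were called and Apoe was the 1 member called of 9. That value includes an 18-hour difference of -2.15 from 1 array per genotype, and over the 12 arrays without the 18-hour groups Apoe was -0.85 (adjusted p = 0.13), not called. Over the 13 arrays it was -1.03 ± 0.17 (adjusted p = 0.0187), with Mylip the other member called (-0.67 ± 0.14, adjusted p = 0.0414), where 2.61% of all genes were called. Over the 12 arrays left without the 18-hour groups Ch25h was the 1 member called (-0.52 ± 0.08, adjusted p = 0.0202), where 1.49% of all genes were called. Mylip and 2 further members, Abcg1 and Scarb1, were also called lower in knockout without knockout 2 weeks replicate 2 alone (-0.82, -0.37 and -0.37; adjusted p = 0.0183, 0.0334 and 0.0432), where 7.29% of all genes were called. Without replicate 1 instead they were -0.56, -0.14 and -0.16 (adjusted p = 0.375, 0.667 and 0.627), and 0% of all genes were called.

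**Figure D3:**
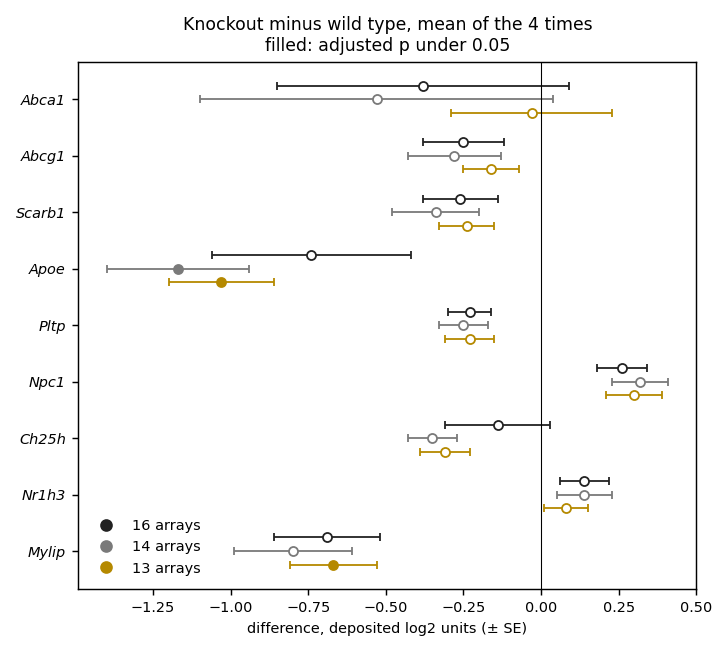
Mean difference of knockout from wild type across the 4 times (x axis, deposited log2 units) for the 9 genes (y axis), over 16 arrays (black), 14 arrays (grey) and 13 arrays (ochre). Bars are standard errors and filled points have an adjusted p under 0.05. Apoe is filled over 14 and 13 arrays (-1.17 and -1.03), Mylip over 13 arrays (-0.67), and no gene is filled over 16.

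In the 2 arrays in which Abcc3, a gene that differs between male and female kidney, stood with the other genotype, Apoe did so too, at 9.63 in wild type (Abcc3 6.25) and 10.97 in knockout (Abcc3 12.93). In knockout 2 weeks replicate 2 Apoe reached the wild type range (10.38) with Abcc3 at a knockout level (6.69). There the mean of 4 genes higher in female kidney was 9.40, and that of 8 genes higher in male kidney was 11.65. Apart from the 18-hour replicates 2, the male-kidney mean was 14.69 to 16.35 in the other knockout arrays and 7.16 to 8.70 in wild type. The female-kidney mean was 7.70 to 10.08 and 10.73 to 15.08 in the same arrays. By the male-kidney genes that array was thus intermediate. The 14-array sets were chosen by such genes, so the call of Apoe there is not independent of that choice. No marker was called in the genotype average, where 0% of all genes were, and the median differences were -0.71 for 9 podocyte markers, -0.59 for 10 endothelial and -0.53 for 7 mesangial ones, beside -0.16 for 15 macrophage and 0.27 for 11 proximal tubule markers. The part of cell composition in the Apoe difference was not tested.

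**Figure D4:**
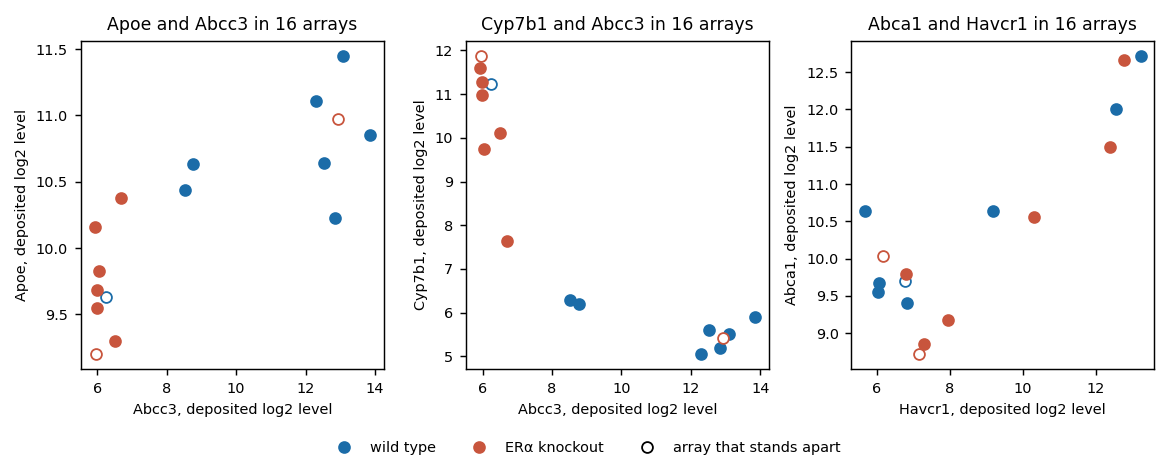
Apoe (left) and Cyp7b1 (middle) against Abcc3, and Abca1 against Havcr1 (right), each as deposited log2 level in the 16 arrays, 1 point per mouse. Wild type is blue, knockout red, and open points are the 3 arrays that stand apart. The open blue point sits with the red ones and an open red point with the blue ones in the left and middle panels, and the 4 arrays with Havcr1 above 12 hold the 4 highest Abca1 values.

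Npc1 was the member with the smallest p-value in untreated mice and at 6 days, and it lay higher in knockout there. It encodes the protein that moves cholesterol out of late endosomes. In untreated mice it was 7.78 and 7.66 in wild type and 8.42 and 8.14 in knockout, and at 6 days 7.87 and 7.68 against 8.36 and 8.27. The groups did not overlap at either time, and the differences were 0.56 ± 0.16 and 0.54 ± 0.16 (SE; limma adjusted p = 0.902 and 0.919), so neither passed. At 18 hours its levels were 7.88 and 8.04 in wild type and 8.00 and 7.68 in knockout, and at 2 weeks 7.85 and 8.07 against 8.12 and 7.93, with overlap at both. The 18-hour overlap came from the replicates 2, which stand apart, while in the replicates 1 knockout was the higher (8.00 against 7.88). Averaged over the times the difference was 0.26 ± 0.08 (limma adjusted p = 0.281), and it was 0.32 ± 0.09 over the 14 arrays (adjusted p = 0.118). Pltp encodes the phospholipid transfer protein that remodels high-density lipoprotein. At 2 weeks it was 6.83 and 7.10 in wild type and 6.37 and 6.50 in knockout, without overlap (-0.54 ± 0.14, limma adjusted p = 0.116). At 6 days its averaged difference from untreated was 0.34 ± 0.10 (adjusted p = 0.136), with the 4 arrays between 6.67 and 7.06 above the untreated 6.47 to 6.64.

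Taken over all 8 groups at once, limma's moderated F test called 0 of the 9 members, where 0.7% of all genes were called. Of the 9 members 5 had an unadjusted p under 0.05, as had 6709 of all 30142 genes. The smallest belonged to Pltp (adjusted p = 0.0726), Ch25h (adjusted p = 0.0791) and Nr1h3 (adjusted p = 0.10), and that of Apoe was 0.724. For Apoe and Abcg1 all 7 pairs of neighbouring groups in the order of means overlapped. Over the 13 arrays the F test called 5 members, Abca1, Abcg1, Ch25h, Nr1h3 and Mylip, where 10.6% of all genes were called. Over the 14 and over the 12 arrays it called Ch25h, where 0.683% and 0.952% were called.

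Other genes of cholesterol handling were taken from 5 lists. Over both genotypes 0.889% of all genes were called at 6 days and 9.34% at 2 weeks. A single call at 2 weeks in a list of 10 to 13 genes is therefore near the background. In the list of efflux and lipoprotein genes (13 of 15 measured) 1 was higher at 6 days over both genotypes, the caveolin gene Cav1 (1.06 ± 0.21, limma adjusted p = 0.0491), and 1 was lower at 2 weeks, Naxe (-1.08 ± 0.26, adjusted p = 0.0328). Cav1 was 7.57 to 7.85 in the untreated arrays and 8.43 to 9.07 at 6 days, without overlap. Of 10 measured genes of endosomal cholesterol and esters, Stard5, which encodes a sterol carrier, was lower at 6 days (-0.89 ± 0.16, adjusted p = 0.035), and Lipa, the lysosomal lipase that frees cholesterol from esters, was lower at 2 weeks (-2.04 ± 0.49, adjusted p = 0.0306). Lipa stood at 12.84 and 13.92 in untreated wild type and at 10.26 and 12.17 at 2 weeks, and knockout went from 13.84 and 13.71 to 12.96 and 10.78. In those 4 arrays at 2 weeks the proximal tubule mean was 13.05, 14.47, 15.58 and 13.91, in the same order as for Lipa, and its part in the list genes that were lower was not tested. Of 12 oxysterol genes 1 was lower at 2 weeks, the sterol sensor gene Insig1 (-0.99 ± 0.23, adjusted p = 0.0278), and Gpr183, which encodes the receptor for an oxysterol made from the Ch25h product, was between 4.20 and 4.71 in every array. Gpr183 and Lrp8 are named for their tie to Ch25h and Mylip, after their values were seen. Of 7 measured liver X receptor partners and targets 0 passed over both genotypes, and over the 13 arrays 3 were lower at 2 weeks, Rxrb (-0.31), Lpcat3 (-0.78) and Smpdl3a (-1.96), where 10.1% of all genes were called lower. The median differences at 2 weeks were 0.12, -0.24, -0.26 and -0.21 for the efflux, oxysterol, endosomal and receptor lists, against 0.09 over all genes.

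Vldlr, the very low density lipoprotein receptor and a substrate of the Mylip ligase, was lower at 2 weeks, where Mylip was higher. Wild type went from 9.27 and 9.60 untreated to 8.26 and 8.67, and knockout from 9.84 and 10.01 to 9.61 and 8.61. The difference was -0.89 ± 0.20 (SE; limma adjusted p = 0.0249). Lrp8, the other measured substrate, differed by 0.35 ± 0.11 (adjusted p = 0.063). Mylip is known to act on the receptor protein, which the arrays did not measure. In wild type alone at 2 weeks, where 8.04% of all genes were called, 4 further calls were made. Lcat, which esterifies cholesterol on lipoproteins, was higher (0.56 ± 0.15, limma adjusted p = 0.0435). Lpl, the lipoprotein lipase gene, was lower (-2.66 ± 0.72, adjusted p = 0.0479), as were Naxe (-1.35 ± 0.37, adjusted p = 0.0499) and Stard5 (-0.85 ± 0.22, adjusted p = 0.0432). All of the calls made with every array in these lists at 6 days and 2 weeks were lost over the 14 arrays. All were made again over the 13. The ester hydrolase gene Nceh1 was called lower at 2 weeks only in these smaller sets, over both genotypes and in wild type. With every array it was -1.64 ± 0.53 over both genotypes (limma adjusted p = 0.0735) and -2.57 ± 0.75 in wild type (adjusted p = 0.0597). In knockout it was -0.71 ± 0.75 (adjusted p = 0.845). Over the 14 arrays the first sizes were again -1.64 and -2.57, and over the 13 they were -2.14 and -2.57.

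Between the genotypes 0 genes of the 5 lists passed over all 16 arrays, where 0% of all genes were called in the average over the 4 times. Cyp7b1, which encodes the oxysterol 7-alpha-hydroxylase that clears oxysterols such as the Ch25h product, stood far apart between the genotypes in most arrays. Untreated wild type had 5.18 and 5.05, and untreated knockout had 11.27 and 11.60. The 18-hour arrays read 5.51 and 11.23 in wild type and 10.12 and 5.42 in knockout. Wild type read 5.89 and 5.61 at 6 days, beside 10.99 and 9.75 in knockout, then 6.30 and 6.20 at 2 weeks, beside 11.88 and 7.63. The 2 arrays labelled 18 hours replicate 2 thus carried the level of the other genotype, and in all other arrays knockout lay above wild type. The averaged difference was 3.46 ± 0.92 over 16 arrays (SE; limma adjusted p = 0.261), 4.76 ± 0.59 over 14 (adjusted p = 0.0057) and 4.23 ± 0.20 over 13 (adjusted p = 2.06e-05). Nceh1, which encodes a hydrolase of cholesterol esters, ran the other way, with untreated levels of 11.70 and 11.35 in wild type but 10.11 and 10.12 in knockout. At 18 hours it was 12.06 and 10.15 against 9.75 and 11.69, so that the same 2 arrays stood with the other genotype, and at 2 weeks it was 8.78 and 9.14 against 10.40 and 8.41. Its averaged difference was -0.86 ± 0.38 over 16 arrays (adjusted p = 0.408) and -1.59 ± 0.15 over 13 (adjusted p = 0.000896), the latter chosen by their values. Cyp7b1 thus split the arrays as Abcc3 did, while the 2-week arrays of Nceh1 did not follow that split. Genes higher in male kidney, 8 in number, were high beside Cyp7b1 in the knockout arrays. Their mean was 15.77 in wild type and 7.12 in knockout in the 18-hour replicates 2, beside Cyp7b1 at 11.23 and 5.42. It was 11.65 in knockout 2 weeks replicate 2, beside Cyp7b1 at 7.63. The part of such sex-differing expression in the Cyp7b1 difference was not tested. Neither gene is shown to differ within glomerular cells.

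**Figure D5:**
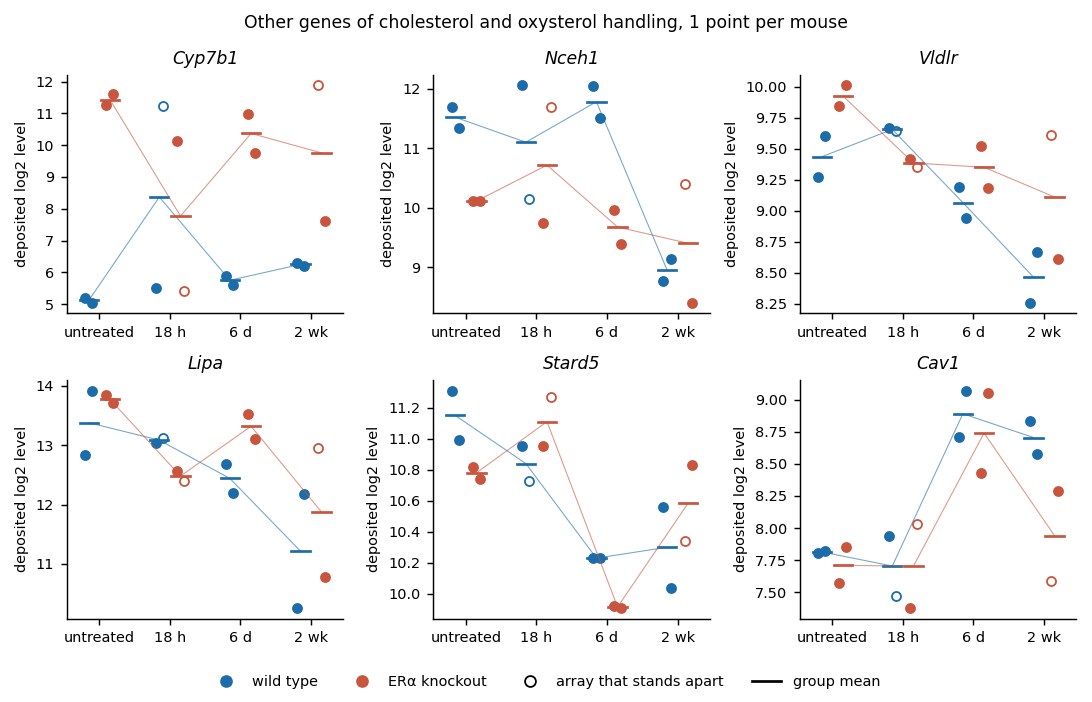
Deposited log2 level (y axis) of 6 other genes of cholesterol and oxysterol handling by time (x axis), with 1 point per mouse, group means as bars, wild type in blue, knockout in red and open points for the 3 arrays that stand apart. Cyp7b1 is near 5 to 6 in wild type and 7.63 or above in knockout apart from the 18-hour replicates 2, and Vldlr and Lipa are lowest at 2 weeks.

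Among the members, Abca1 and Abcg1 had a Pearson r of 0.80 over the 16 arrays, Scarb1 had 0.71 with Abca1 and 0.80 with Abcg1, and Nr1h3 had -0.79 with Abca1 and -0.85 with Abcg1. Apoe had 0.27 with Abca1 and -0.69 with Npc1. Over the same 16 arrays, with predicted genes set aside, the levels most like that of Abca1 were those of Zc3h7a, Nfkbiz and Snhg5 (r = 0.963, 0.941 and 0.941), those most like Abcg1 were Rasl11a, Cacnb2 and Sirt6 (0.953, 0.952 and 0.951), and those most like Apoe were Prom1, Tmem218 and Pbxip1 (0.93, 0.906 and 0.901). These values are descriptions. The arrays share groups, and the highest of 30142 genes is high by selection.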

How the data were processed

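RNA of 16 glomerular extracts was hybridised to Affymetrix arrays, 1 per mouse. The deposited log2 values per probeset were made by the authors with Affymetrix Expression Console and Transcriptome Analysis Console, per the submitters' processing notes; summarisation, normalization and annotation build are unstated there. Of 72688 probesets 30604 carried 1 symbol, 2146 several and 39938 none; 827 symbols were updated through Entrez identifiers. The probeset with the highest mean stood for each of 30142 genes. limma 3.58.1 in R 4.3.3 fitted 8 group means over 16 arrays (lmFit, eBayes with an intensity trend; 8 residual degrees of freedom), with Benjamini-Hochberg adjustment over all genes and a threshold of 0.05; the steps were tested on simulated data. With 2 arrays a group, their number limits the precision. Labels do not say whether mice of a group shared a cage or litter. The p-values set each difference against the spread between these samples within the 8 groups. Deviations of same-numbered arrays from their group means had a median r of 0.0402 over 28 pairs of groups. The range was -0.679 to 0.593, with 11 pairs over 0.1.

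Named were all members, up to 4 called genes with the largest change in each list, and the 3 genes most like Abca1, Abcg1 and Apoe. Members and lists were chosen with earlier results of these data known. Alternatives were a filter on dim genes, other probeset rules, quantile normalization, median centring, no trend, array weights, fewer groups, a replicate block and leaving out each array; the sets of 14, 13 and 12 arrays were chosen after seeing the data.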

Additional observations from a re-analysis of the deposited data

Results flagged for a closer look

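Npc1 was flagged because its arrays moved to opposite sides of untreated in the genotypes. At 18 hours both wild type arrays (7.88 and 8.04) lay above both untreated ones (7.78 and 7.66), and both knockout arrays (8.00 and 7.68) lay below theirs (8.42 and 8.14). The knockout response minus the wild type response was -0.68 ± 0.22 at 18 hours (SE; limma adjusted p = 1) and -0.49 ± 0.22 at 2 weeks (limma adjusted p = 0.664), where the same order held (7.85 and 8.07 in wild type, 8.12 and 7.93 in knockout). Neither passed. The 18-hour value includes both 18-hour replicates 2, which stand apart. The 2-week value includes knockout 2 weeks replicate 1, which also stands apart and whose 8.12 lay close to the lower untreated value, 8.14.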

How the results depend on the processing

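The counts of members called with limma moved as follows. At 6 days over both genotypes (1 member) the count was 0 with dim genes left out, which removes Ch25h itself, 0 with quantile normalization, 3 with array weights and 2 with the groups compared only. At 2 weeks over both genotypes (1) it was 3 with dim genes left out, 2 without the intensity trend, 0 with array weights, 0 with the groups compared only, 0 over 14 arrays, 5 over 13 and 0 over 12. With the replicate block that count was 0 (Mylip 0.88, adjusted p = 0.0616), and the block moved no other count. At 2 weeks in wild type (1) it was 0 with quantile normalization, array weights, 14 or 12 arrays, and 4 over 13; with the groups compared only it stayed 1, as Abca1 in place of Nr1h3. The count was 0 over 16 arrays and 1, 2 and 1 over 14, 13 and 12 for the genotype average, and 1, 5 and 1 for the F test. Over 13 arrays it was also 1 at 6 days in each genotype and 3 at 2 weeks in knockout. Leaving out 1 array gave 0 to 3 members for the genotype average, 0 to 1 for genotype at 18 hours, 0 to 5 for genotype at 2 weeks, 0 to 1 at 18 hours and at 6 days over both genotypes, 0 to 4 at 2 weeks, 0 to 1 at 6 days and 0 to 3 at 2 weeks in wild type, 0 to 1 at 18 hours and 0 to 3 at 2 weeks in knockout, and 0 to 6 for the F test. In the fits with the highest of these counts 7.29%, 0.00332%, 17.7%, 0.00664%, 0.826%, 20.5%, 0.00332%, 15.5%, 0.00664%, 5.3% and 13.3% of all genes were called, in the same order. The causes were not tested. Of 1488 recomputed member differences 1410 kept their side of the threshold, 39 lost a call, 39 gained one and 0 called ones changed sign, while 44 uncalled ones did. The 18-hour comparisons could not be made over 12 arrays. Ch25h lies near the background probesets, which limits its differences.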
